A study of Mus musculus with 8 samples.

Results

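The proteasome is the barrel-shaped protease that degrades proteins marked with ubiquitin. Its core is built of alpha rings, which gate the entry, and beta rings, which hold the proteolytic sites, and a regulatory cap of a base and a lid binds, deubiquitinates and unfolds substrates. In cells exposed to interferon, Psmb8, Psmb9 and Psmb10 replace the catalytic subunits Psmb5, Psmb6 and Psmb7 to form the immunoproteasome, which favours peptides that fit MHC class I molecules. Psme1 and Psme2 then form the inducible activator PA28alpha-beta, while Psme3 forms the nuclear activator PA28gamma. The genes described here are 37 of the 22226 genes measured on these liver arrays: 7 alpha subunits (Psma1 to Psma7), 4 beta subunits without a catalytic site (Psmb1 to Psmb4), 3 constitutive and 3 inducible catalytic subunits, 6 base ATPases (Psmc1 to Psmc6), 3 further base subunits (Psmd1, Psmd2 and Psmd4), 8 lid subunits (Psmd3, Psmd6, Psmd7, Psmd8, Psmd11, Psmd12, Psmd13 and Psmd14) and the 3 activator genes. They were picked out by gene symbol, with the brightest probe standing for each gene. The 5 inducible genes (Psmb8, Psmb9, Psmb10, Psme1 and Psme2) were compared with the 32 others.

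All mice were 8-week-old ICR scid mice, a strain whose own T and B lymphocytes fail to mature. The first comparison set untreated males over untreated females, with 5 and 5 mice pooled on each of 2 arrays. The others set mice given Adeno-Cux2, an adenovirus that carries the transcription factor Cux2, over mice of the same sex given the control adenovirus Adeno-CMV: males euthanized on day 5 (6 over 6 and 6 over 7 mice), females on day 5 (4 over 4 and 4 over 3) and males on day 3 (5 over 5 and 6 over 6). Each array compared a separate pair of pools, replicate 1 with the numerator in the red dye and replicate 2 with it in the green. Values are log2 ratios of numerator over denominator with n = 2 arrays, errors after ± are standard errors of the limma model, and a gene was said to have risen or fallen at an adjusted p under 0.05. The p-values rest on the spread between pools, not between mice. That spread was estimated over all 8 arrays together, after a dye term that is also the replicate number. A gap between replicates 1 and 2 that the comparisons share is thus not counted in it. In whole liver a change in the number of cells of a type and a change in RNA per cell cannot be told apart.

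Some pools stood apart or went against a label, which bears on every value below. Cux2 itself was higher in males labelled Adeno-Cux2 (0.60 ± 0.09 at day 5 and 0.49 ± 0.09 at day 3) but lower in the female pools labelled Adeno-Cux2, at −0.61 ± 0.09 with −0.58 and −0.65 on the 2 arrays, so the female values are given for pools as labelled, and every female ratio would change sign if the labels were turned. In untreated males over females Cux2 stood at −1.88 ± 0.09, with −1.74 and −2.02 on the arrays. Whether the Cux2 probe reads the viral transgene is not stated. Exocrine pancreas markers were high in single pools: their median log2 ratio over 11 genes was −0.08 and 3.46 on the 2 untreated arrays, 4.27 and −0.83 in females and 0.05 and 2.81 in males at day 3. The median of 12 skeletal muscle markers was −1.30 and −2.74 on the female arrays and 0.30 and 1.40 on those of males at day 5. Their summed signal was 1440 over 4270 and 2590 over 22600 on the female arrays as labelled. On those of males at day 5 it was 1600 over 1210 and 14800 over 4520. The part of these tissues in the proteasome values was not tested. All 12 measured hepatocyte markers were well above background in all 16 channels, and their levels moved as well. Of them 4 rose and 1 fell in males at day 5, and 5 rose and 1 fell in females. At day 3, 2 rose and 6 fell, and 3 fell in untreated mice. The called shares were 41.7%, 50%, 66.7% and 25% in that order, where all genes had 18.8%, 19.1%, 44% and 11%. Their medians on replicates 1 and 2 were 0.54 and −0.02 in males at day 5 and 0.48 and −0.03 in females. At day 3 they were −0.13 and −0.41, with 0 markers above 0 on both arrays, and in untreated mice 0.19 and −0.86. The median was thus higher on replicate 1, with the numerator in the red dye, in all 4 comparisons. This gap goes with both dye and replicate number, which cannot be told apart. Well above background in every channel were also all 37 proteasome genes, with no saturated reading among 592, and every one of the 37 passed the filter on dim probes.

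Most proteasome genes had a mean log2 ratio near 0 in each comparison. The mean lay within 0.25 of 0 for 33 of 37 genes in the untreated comparison, 33 for males at day 5, 34 for females and 30 for males at day 3. The 2 untreated arrays often lay apart, with r = 0.154 over the 37 genes, so values of opposite sign can cancel in that mean. Psma3, for example, gave −0.54 and 0.09 there. The median absolute log2 ratio over the 37 was 0.108, 0.0664, 0.0488 and 0.127 in the same order, against 0.116, 0.116, 0.116 and 0.208 over all genes. Among genes at least as bright as the dimmest of the 37, those medians were 0.162, 0.141, 0.147 and 0.30. By direction, 1 of the 37 rose and 1 fell in untreated males over females, where 4.91% of all genes rose and 6.13% fell. In males at day 5, 3 rose and 1 fell, against 13.9% and 4.95% of all genes. In females, 2 rose and 1 fell, against 12.8% and 6.3%. In males at day 3, 6 rose and 1 fell, against 23.7% and 20.3%. Without replicate 1 of the untreated arrays 0 genes rose and 0 fell, and leaving out replicate 2 instead gave 3 and 4. Leaving out either own array, or for females either male day 5 array, left 0 rises at day 5, and leaving out replicate 1 left 3 at day 3. At day 3 the rises were 12 without background subtraction and 9 with median centring, where those of all genes went from 5276 to 5060 and 6084. In either direction the shares were 5.41%, 10.8%, 8.11% and 18.9% of the 37, where all genes had 11%, 18.8%, 19.1% and 44%. At day 3, 53.9% of all calls were rises, and 68.5% were with median centring. The 16 calls fell on 8 genes, 5 of which (Psmb8, Psmb10, Psme2, Psme3 and Psmd8) passed in more than 1 comparison.

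**Figure D1:**
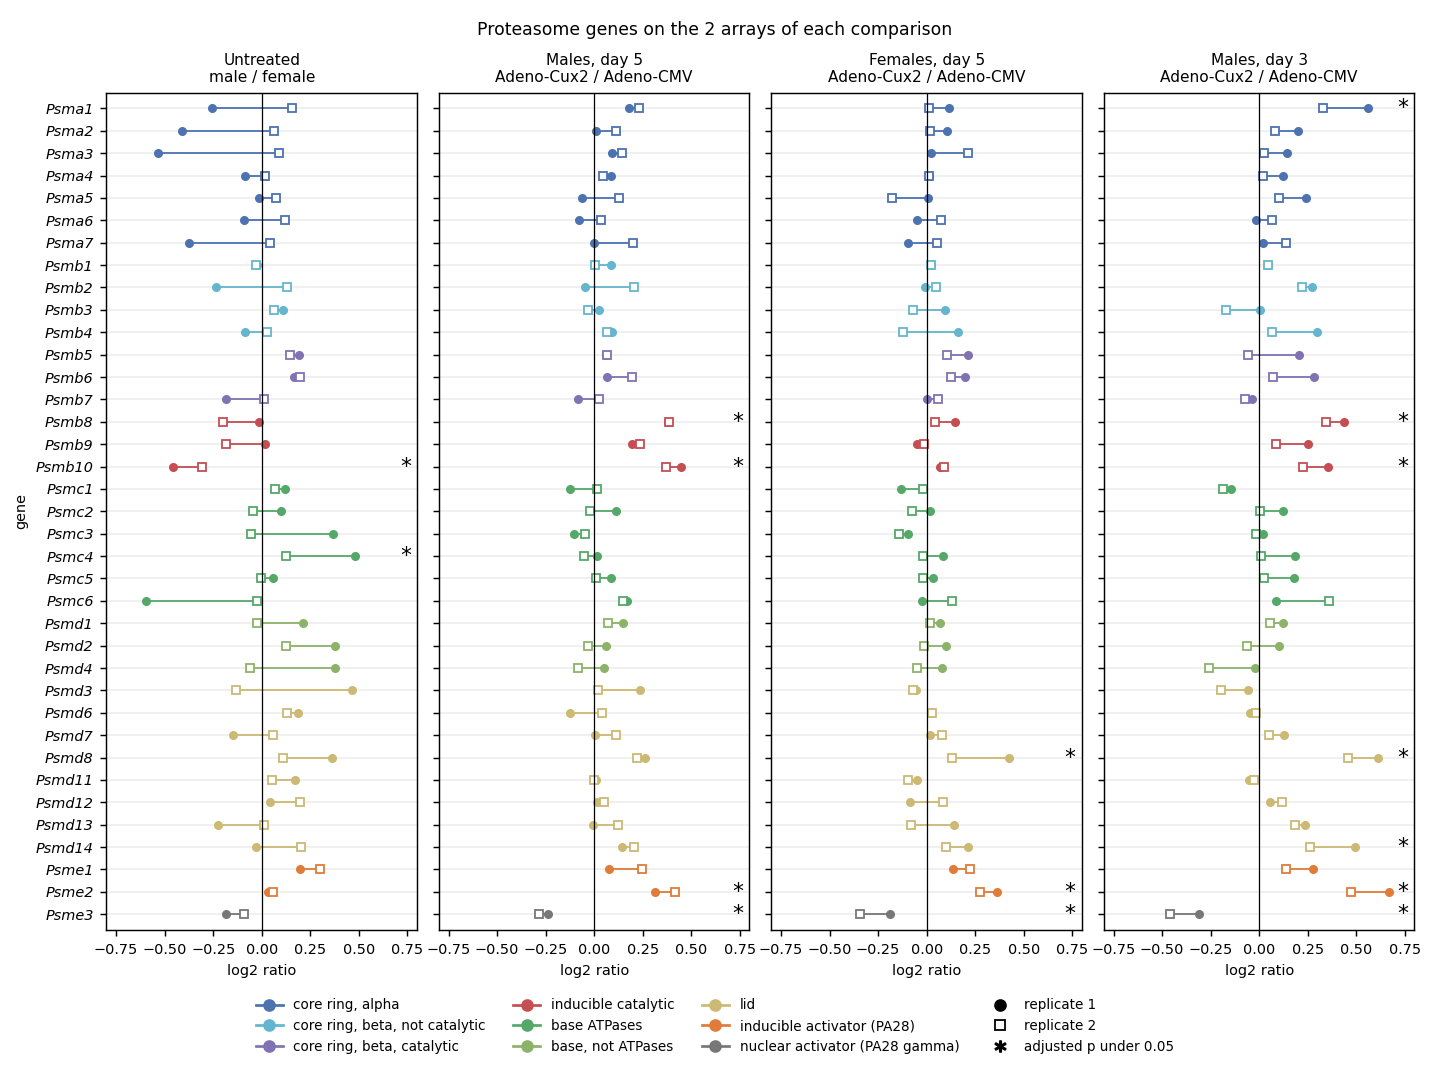
Log2 ratio (x axis) of the 37 proteasome genes (rows, coloured by role) in the 4 comparisons, with replicate 1 as a filled circle, replicate 2 as an open square and a star at an adjusted p under 0.05. Most points lie near 0 in the treated comparisons, Psme2 is on the right and Psme3 on the left in all 3 of them with the female pools as labelled, and the 2 untreated arrays lie apart for many genes.

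Among the inducible catalytic subunits, Psmb8 and Psmb10 were higher in the Adeno-Cux2 pools of males, by 1.30-fold and 1.33-fold at day 5 and by 1.31-fold and 1.22-fold at day 3. Psmb9 passed in no comparison. Psmb10 was also lower in untreated males than in untreated females, 1.30-fold.

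Psmb8 encodes the inducible counterpart of the chymotrypsin-like subunit Psmb5, and its probe lies on chromosome 17, between 33811095 and 33811419 on mm8, plus strand. Its log2 ratios in males at day 5 were 0.38 and 0.39 on the 2 arrays (mean 0.38 ± 0.06, adjusted p = 0.00764). At day 3 they were 0.44 and 0.34 (0.39 ± 0.06, adjusted p = 0.00296). All 4 male pools labelled Adeno-Cux2 were above their Adeno-CMV partners. In females the arrays gave 0.15 and 0.04 (0.09 ± 0.06, adjusted p = 0.386), and in untreated mice −0.01 and −0.20 (−0.11 ± 0.06, adjusted p = 0.333). A further Psmb8 probe gave −0.08, 0.38, 0.09 and 0.34 over the untreated mice, day 5 males, females and day 3 males. The day 5 call was lost without either of its arrays (adjusted p = 0.091 and 0.219) and with the scanner software's ratios (0.0521), and the day 3 call without replicate 2 (0.0507).

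Psmb10 encodes the inducible counterpart of the trypsin-like subunit Psmb7, with its probe on chromosome 8 between 108824906 and 108824965, minus strand. The ratios were 0.45 and 0.37 in males at day 5 (0.41 ± 0.07, adjusted p = 0.00909) and 0.35 and 0.23 at day 3 (0.29 ± 0.07, adjusted p = 0.0159). In untreated mice they were −0.46 and −0.31 (−0.38 ± 0.07, adjusted p = 0.0219), so both male pools lay below their female partners. In females they were 0.07 and 0.09 (0.08 ± 0.07, adjusted p = 0.524). Psmb10 thus passed below 0 for untreated males over females and above 0 for Adeno-Cux2 over Adeno-CMV males. These ratios have different denominators and come from separate pools, so their signs are not opposite changes of 1 kind. The untreated call was lost without replicate 1 (adjusted p = 0.233), without either male day 5 array (0.063 each), from its own arrays alone (0.232) and with the software's ratios (0.0847). The day 5 call was lost without replicate 1 or 2 (0.207 and 0.13) and with the software's ratios (0.0542), and the day 3 call without replicate 1 or 2 (0.226 and 0.0644).

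Psmb9, the inducible counterpart of the caspase-like subunit Psmb6, has its probe on chromosome 17 between 33792517 and 33792576, minus strand. The arrays gave 0.20 and 0.24 in males at day 5 (0.22 ± 0.07, adjusted p = 0.0942) and 0.25 and 0.09 at day 3 (0.17 ± 0.07, adjusted p = 0.104). They gave −0.05 and −0.02 in females (−0.03 ± 0.07, adjusted p = 0.819) and 0.02 and −0.18 in untreated mice (−0.08 ± 0.07, adjusted p = 0.506). In males the ratios lay above 0 on all 4 arrays without passing the test, and the unadjusted p at day 5 was 0.0226 (limma).

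The constitutive catalytic subunits passed in no comparison (limma), and Psmb5 in untreated mice was the 1 with an unadjusted p under 0.05. Psmb5 gave 0.06 and 0.07 in males at day 5, 0.20 and −0.06 at day 3, 0.21 and 0.11 in females and 0.19 and 0.15 in untreated mice. Psmb6 gave 0.07 and 0.20, 0.28 and 0.07, 0.20 and 0.13, and 0.17 and 0.20 in the same order, above 0 on all 8 arrays. Psmb7 gave −0.08 and 0.03, −0.04 and −0.07, 0.003 and 0.06, and −0.18 and 0.01. Subtracting each partner within an array gave differences of log2 ratios. Psmb10 exceeded Psmb7 by 0.53 and 0.35 in males at day 5 and 0.39 and 0.30 at day 3, and Psmb8 exceeded Psmb5 by 0.32 and 0.32, then 0.23 and 0.40. Psmb9 differed from Psmb6 by 0.13 and 0.04 at day 5 and by −0.03 and 0.01 at day 3. In females these differences were 0.07 and 0.03, −0.07 and −0.06, and −0.25 and −0.14 for the Psmb10, Psmb8 and Psmb9 pairs. In untreated mice all 3 pairs were below 0 on both arrays, from −0.15 to −0.38. These differences within arrays are given as values, with no test.

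**Figure D2:**
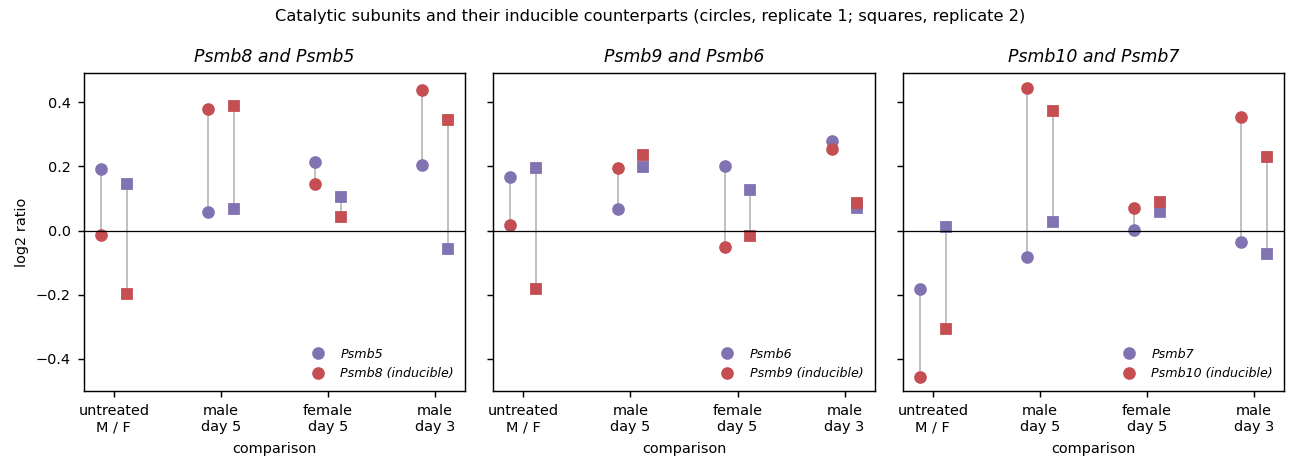
Log2 ratio (y axis) of each inducible catalytic subunit (red) and its constitutive counterpart (purple) in the 4 comparisons (x axis), with circles for replicate 1 and squares for replicate 2 and a line joining the genes of 1 array. Psmb8 and Psmb10 lie above their counterparts on all 4 arrays of treated males and below them on both untreated arrays, while Psmb9 lies within 0.13 of Psmb6 in treated males.

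The stretches upstream of the inducible Psmb8 and Psmb9 and the constitutive Psmb5 and Psmb6 are shown as sequence. Of these genes only Psmb8 passed in treated males, and no test compared it with the others. Whether the letters bear on the log2 ratios was not tested. The sequences are from the RefSeq promoter table on GRCm38.p6, which held 31 of the 37 genes. Each is the 150 bases before the start, Psmb8 from chr17:34198045-34198194 (plus strand), Psmb9 from chr17:34187331-34187480 (minus), Psmb5 from chr14:54617996-54618145 (minus) and Psmb6 from chr11:70525207-70525356 (plus). Capitals mark a motif match, on the strand shown for Psmb8, Psmb5 and Psmb6 and on the opposite strand for Psme1.
Psmb8: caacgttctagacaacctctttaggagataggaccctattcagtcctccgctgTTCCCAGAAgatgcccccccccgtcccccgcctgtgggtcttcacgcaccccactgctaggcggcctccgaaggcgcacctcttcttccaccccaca
Psmb9: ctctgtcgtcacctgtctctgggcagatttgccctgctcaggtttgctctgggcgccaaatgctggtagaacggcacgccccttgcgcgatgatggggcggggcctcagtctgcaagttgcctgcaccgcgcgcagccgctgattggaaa
Psmb5: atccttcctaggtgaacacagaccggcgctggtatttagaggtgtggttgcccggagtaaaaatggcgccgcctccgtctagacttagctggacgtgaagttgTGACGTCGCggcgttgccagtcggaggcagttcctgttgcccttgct
Psmb6: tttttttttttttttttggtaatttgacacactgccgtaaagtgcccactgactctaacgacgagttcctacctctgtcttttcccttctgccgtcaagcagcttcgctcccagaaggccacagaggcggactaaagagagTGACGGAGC
Psme1: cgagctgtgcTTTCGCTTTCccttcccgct

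Psme1 is shown as 30 bases around a match just after its start, at chr14:55578493-55578522 (plus strand). Windows from 250 bases before to 50 after the start were searched on both strands for 3 motifs, which overlap in no member. The gamma-activated sequence TTCNNNGAA was found in Psmb8 (from position −97) and Psmd2, and in 9.55% of the 27025 genes with a window. The interferon response element, which is GAAA, NN and GAAA in a row, was found in Psme1, Psmb3 and Psmd4 and in 3.99% of all genes. The antioxidant response element TGACNNNGC was found in Psmb5 (from −47), Psmb6 (from −9), Psmc6 and Psmd12 and in 13.99% of all genes. Psmb9, Psmb10 and Psme2 held none of these motifs in their windows. In the RefSeq gene order Psmb9, Tap1, Psmb8 and Tap2 follow one another on chromosome 17. Tap1, which carries peptides into the endoplasmic reticulum, was higher in males at day 5 (0.35 and 0.44, mean 0.40 ± 0.08, adjusted p = 0.0197) and day 3 (0.61 and 0.39, 0.50 ± 0.08, adjusted p = 0.00331). It stood at 0.02 ± 0.08 in females and 0.00 ± 0.08 in untreated mice.

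Of the activator genes, Psme2 rose and Psme3 fell in both comparisons of treated males and, with the pools as labelled, in females, where both signs would turn with the labels. Psme1 passed in none. Psme2, the beta subunit of the inducible activator, was higher in Adeno-Cux2 pools by 1.29-fold in males at day 5, 1.25-fold in females and 1.49-fold in males at day 3. Its arrays gave 0.31 and 0.42 in males at day 5 (0.36 ± 0.07, adjusted p = 0.0159), 0.36 and 0.27 for the female pools (0.32 ± 0.07, adjusted p = 0.0273) and 0.67 and 0.47 at day 3 (0.57 ± 0.07, adjusted p = 0.000994). With the pools as labelled, all 6 treated arrays lay above 0. The untreated arrays, which set males over females, gave 0.03 and 0.06 (0.04 ± 0.07, limma adjusted p = 0.747). The Psme2 probe lies on chromosome 14 between 54541569 and 54541628, minus strand. A further probe gave −0.04, 0.42, 0.34 and 0.57 over the untreated mice, day 5 males, females and day 3 males. The day 3 call held under all 16 alternatives. The day 5 call of males was lost without replicate 1 or 2 (adjusted p = 0.108 and 0.338), with median centring (0.0575) and with the software's ratios (0.0603). That of females was lost without replicate 1 or 2 (0.282 and 0.157), without either male day 5 array (0.0537), from its own arrays (0.0728) and with the software's ratios (0.128).

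Psme1, the alpha subunit, lies beside Psme2 on chromosome 14, with Emc9 between them in the RefSeq order. Its male ratios were 0.08 and 0.25 at day 5 and 0.28 and 0.14 at day 3, its female ratios were 0.13 and 0.23, and the untreated arrays gave 0.20 and 0.30. They were above 0 on all 8 arrays, with adjusted p = 0.205, 0.0621, 0.156 and 0.0827. Psme3 had the lowest log2 ratio of the 37 in each treated comparison, in females with the pools as labelled: −0.24 and −0.29 in males at day 5 (−0.26 ± 0.07, adjusted p = 0.045), −0.19 and −0.34 in females (−0.27 ± 0.07, adjusted p = 0.0426) and −0.31 and −0.46 in males at day 3 (−0.38 ± 0.07, adjusted p = 0.00473). The untreated arrays gave −0.19 and −0.09 (−0.14 ± 0.07, adjusted p = 0.254). It was also the dimmest of the 37, at a mean log2 signal of 9.03 where the median was 14, and it has 1 probe. Its calls at day 5 were lost under 9 of 16 alternatives in each sex, among them leaving out any 1 array of the 3 treated comparisons, and the values ran from −0.45 to −0.19 in males and −0.47 to −0.16 in females. At day 3 the value was −0.20 with median centring (adjusted p = 0.0896), and without replicate 2 the adjusted p was 0.0947.

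**Figure D3:**
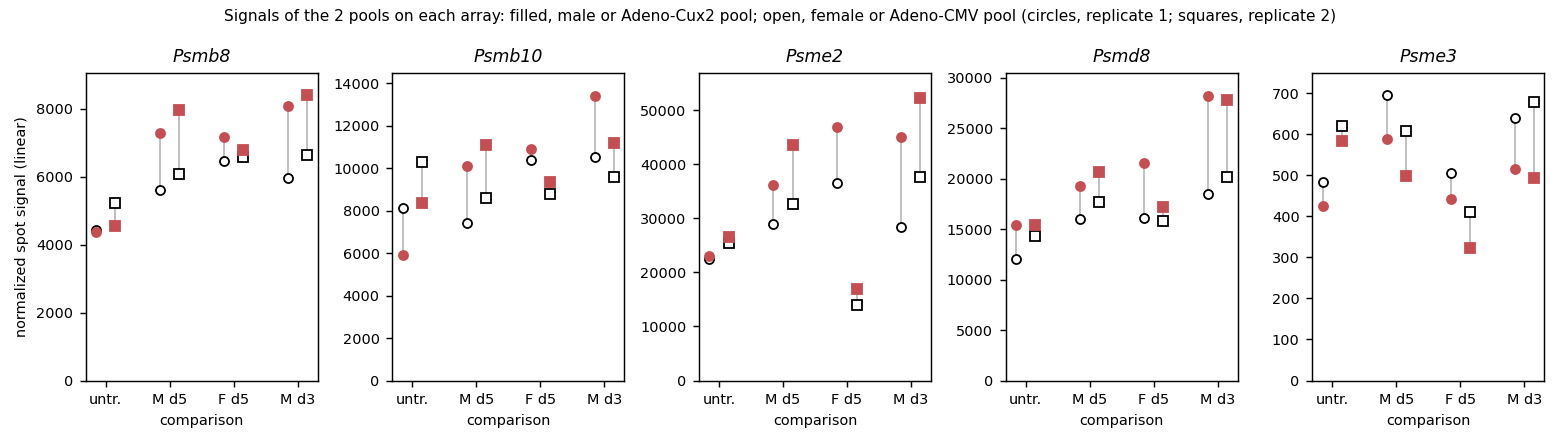
Normalized linear spot signal (y axis) of Psmb8, Psmb10, Psme2, Psmd8 and Psme3 in both pools of each array, filled for the male or Adeno-Cux2 pool and open for the female or Adeno-CMV pool, with circles for replicate 1 and squares for replicate 2. In treated males Psmb8 read 7290 over 5600 and 7960 over 6090 at day 5, and 8090 over 5970 and 8410 over 6630 at day 3, while Psme3 was below its partner in all 6 treated pairs as labelled.

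As a group, the 5 inducible genes had 3 rises in the males at day 5, 1 in the females and 3 at day 3 (60%, 20% and 60% called, where all genes had 18.8%, 19.1% and 44%), and 1 fall in untreated mice (20%, where all genes had 11%). The female share was thus near that of all genes. The 32 others had 1 fall, 1 rise and 1 fall, 3 rises and 1 fall, and 1 rise (3.12%, 6.25%, 12.5% and 3.12%). The median of the inducible genes minus that of the others was 0.27 and 0.32 on the 2 arrays of males at day 5, 0.23 and 0.19 at day 3, 0.11 and 0.07 in females and 0.003 and −0.24 in untreated mice. All 5 lay above the upper quartile of the others in males at day 5, 4 of 5 did in females and at day 3, and 1 did in untreated mice.

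**Figure D4:**
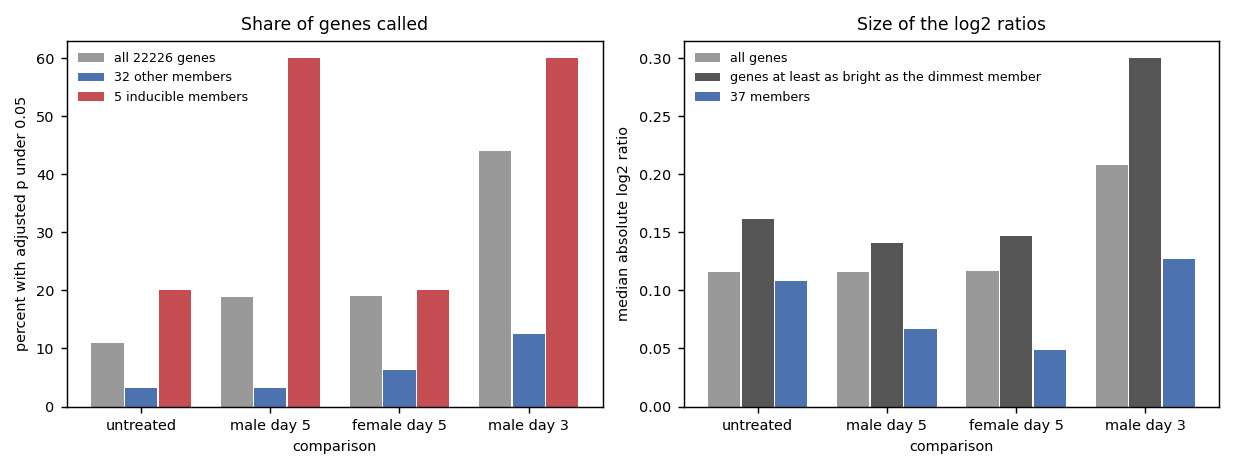
Left, percent of genes (y axis) with an adjusted p under 0.05 among all 22226 genes, the 32 other proteasome genes and the 5 inducible ones in the 4 comparisons; right, median absolute log2 ratio of all genes, of genes at least as bright as the dimmest of the 37, and of the 37. The inducible genes reach 60% in both male comparisons, the 32 others stay at 12.5% or below, and the 37 have the lowest bar of the right panel in each comparison.

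With the female pools as labelled, no difference between treated comparisons passed the test for any of the 37. If the female labels were turned, the female minus male differences and their intervals would take other values, which were not computed. For females minus males at day 5 the lowest adjusted p was 0.284 (limma), with 3 genes at an unadjusted p under 0.05. Of all genes 0.036% were called higher and 0.171% lower in females (0.207% in all). These 3 were the inducible catalytic subunits: Psmb10 at −0.33 (95% interval −0.57 to −0.09, adjusted p = 0.284), Psmb8 at −0.29 (−0.51 to −0.07, 0.296) and Psmb9 at −0.25 (−0.50 to −0.002, 0.466). For males at day 5 minus day 3 the lowest adjusted p was 0.107, with 1 gene at an unadjusted p under 0.05. Of all genes 8.1% were called higher at day 5 and 4.82% lower (12.9% in all). That gene was Psmd8, at −0.29 (−0.53 to −0.06). The arrays of each difference lie on separate slides, so slide and difference cannot be told apart.

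Of the 4 other genes that rose, 3 belong to the regulatory cap (Psmd8, Psmd14 and Psmc4) and 1 to the core (Psma1). Psmd8, a lid subunit, was higher by 1.45-fold in males at day 3 and 1.21-fold in females. Its arrays gave 0.61 and 0.46 at day 3 (0.53 ± 0.07, adjusted p = 0.00109), 0.42 and 0.13 in females (0.28 ± 0.07, adjusted p = 0.0366), 0.26 and 0.22 in males at day 5 (0.24 ± 0.07, adjusted p = 0.0579) and 0.36 and 0.11 in untreated mice (0.24 ± 0.07, adjusted p = 0.0809). The ratio was above 0 on all 8 arrays, and the day 3 arrays were the 2 highest. The day 3 call held under all 16 alternatives, and the female call was lost under 10 of 16, with 0.20 without replicate 1 (adjusted p = 0.409) and 0.35 without replicate 2 (0.124). Psmd14, the lid's deubiquitinase, gave 0.49 and 0.26 at day 3 (0.38 ± 0.09, adjusted p = 0.014), where 2 further probes gave 0.32 and, dim, 0.11. At day 5 it gave 0.14 and 0.20 in males, with 0.21 and 0.10 for the female pools, and the untreated arrays gave −0.03 and 0.20. The day 3 call was lost with the mean of its probes (0.0595) and without replicate 1 (0.23, adjusted p = 0.24). Of the other 6 lid genes none passed (limma), also at an unadjusted p under 0.05, and their log2 ratios ran from −0.13 for Psmd3 (−0.06 and −0.19 on the arrays) to 0.21 for Psmd13 at day 3.

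Psmc4, a base ATPase, was higher in untreated males at 0.48 and 0.12 (0.30 ± 0.07, adjusted p = 0.047), and the call was lost under 14 of 16 alternatives, with 0.18 without replicate 1 (0.41). No other base gene passed (limma), and at an unadjusted p under 0.05 were Psmc6 and Psmd2 in untreated mice and Psmc1 at day 3. Psmd2, a ubiquitin-receptor scaffold of the base, gave 0.38 and 0.12 in untreated mice (0.25 ± 0.06, adjusted p = 0.0527). Psmc6 gave −0.60 and −0.03 there, the lowest mean among the constitutive genes, and its probes disagreed at day 3, with 0.22 and −0.29. The lowest base values in treated mice were those of Psmc3 in males at day 5 (−0.10 and −0.05) and in females (−0.09 and −0.14), and of Psmc1 at day 3 (−0.15 and −0.19). Psmc1 was also low in males at day 5 (−0.12 and 0.02) and in females (−0.13 and −0.02), with Psmd6 at −0.13 and 0.04 in males at day 5. Psmd4, a ubiquitin receptor, gave −0.02 and −0.26 at day 3.

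In the core, Psma1, an alpha-ring subunit, passed in males at day 3 at 0.56 and 0.33 (1.36-fold, 0.44 ± 0.11, adjusted p = 0.0168), which was lost without replicate 1 (0.27, adjusted p = 0.27). At day 5 it gave 0.18 and 0.23 in males. No other alpha gene and no beta gene without a catalytic site passed in any comparison, and Psmb2 at day 3 was the 1 with an unadjusted p under 0.05. Their lowest and highest treated means were −0.09 for Psma5 in females (0.01 and −0.18) and 0.25 for Psmb2 in males at day 3 (0.27 and 0.22, adjusted p = 0.0567), and Psma3 reached 0.02 and 0.21 in females. The untreated arrays differed from each other by role: the alpha genes had a median of −0.26 on replicate 1 and 0.07 on replicate 2, with Psma3 at −0.54 and 0.09 and Psma2 at −0.41 and 0.06, while the 3 base genes that are no ATPases had 0.38 and −0.02. Over the 37 genes, which share 1 probe set and are not independent replicates, the 2 arrays correlated at r = 0.154 for untreated mice, 0.705 for treated males at day 5, 0.50 for the females and 0.846 for males at day 3. Between comparisons, which share no pools, r was 0.831 for males at day 5 and day 3. With the female pools as labelled, r was 0.69 for males and females at day 5 and 0.763 for females and males at day 3. The untreated values gave −0.264 to 0.146 with the others, also with the female pools as labelled. The sign of each r that involves females would turn with the labels.

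Genes that act with the proteasome were followed as lists. Of 29 measured assembly factors and regulators, 0 passed in males at day 5 (limma, 5 at an unadjusted p under 0.05), 1 rose in females, 8 rose and 4 fell in males at day 3, and 2 rose and 2 fell in untreated mice, with medians from −0.05 to 0.06. The called shares were 0%, 3.45%, 41.4% and 13.8%, where all genes had 18.8%, 19.1%, 44% and 11%. At day 3 the highest called was Zfand2a, a stress-induced proteasome adaptor (0.85 and 0.83, mean 0.84 ± 0.11, adjusted p = 0.00106), and the lowest Psmf1, a proteasome inhibitor (−0.51 and −0.36, −0.44 ± 0.10, adjusted p = 0.0102). Ddi2, the protease that activates Nfe2l1, rose in females (0.43 and 0.31, 0.37 ± 0.07, adjusted p = 0.0124) and was lower in untreated males (−0.50 and −0.44). Nfe2l1, the factor that drives proteasome genes when the proteasome is blocked, stood between −0.11 and −0.01 and passed nowhere. Nfe2l2, the antioxidant response factor, rose at day 3 (0.53 and 0.64, 0.59 ± 0.09, adjusted p = 0.00268). The assembly chaperones Psmg1 and Pomp passed in no comparison.

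Interferon and antigen genes were followed in the same way. Of 22 interferon signalling genes 15 rose and 1 fell both in males at day 5 (median 0.50) and at day 3 (0.44), 4 rose and 1 fell in females (0.14), and 4 fell in untreated mice (0.02). The called shares were 72.7%, 72.7%, 22.7% and 18.2% in that order, where all genes had 18.8%, 44%, 19.1% and 11%. Irf1, a transcription factor induced by interferon, rose in males at day 5 (0.52 and 0.68, 0.60 ± 0.07, adjusted p = 0.00189) and day 3 (0.16 and 0.38, 0.27 ± 0.07, adjusted p = 0.0228), and stood at 0.14 ± 0.07 in females (adjusted p = 0.262). Of 12 class I antigen genes 4 rose in males at day 5, 1 in females and 5 at day 3 and none fell, with medians of 0.21, 0.05 and 0.19, while 2 fell in untreated mice. Their called shares of 33.3%, 8.33%, 41.7% and 16.7% stood beside 18.8%, 19.1%, 44% and 11% of all genes, so the share at day 3 was near that of all genes. Macrophage markers moved too: of 15, 13 rose at day 5 in males and 10 rose in females (Marco there from 1 array), 9 rose and 5 fell at day 3, and 6 fell in untreated mice. Their summed signal was 199000 to 281000 in the 6 Adeno-Cux2 pools and 70200 to 118000 in the 6 Adeno-CMV pools. Of 10 neutrophil markers 8 rose in each treated comparison and 4 fell in untreated mice, with treated summed signals of 25000 to 107000 and 6820 to 33800. Of 13 T and NK cell markers 8 rose in males at day 5, 4 in females and 8 at day 3, where 1 fell. In untreated mice 3 fell. For males at day 5, females, males at day 3 and untreated mice, the called shares of macrophage markers were 86.7%, 66.7%, 93.3% and 40%. Those of neutrophil markers were 80%, 80%, 80% and 40%, and those of T and NK cell markers 61.5%, 30.8%, 69.2% and 23.1%. All genes had 18.8%, 19.1%, 44% and 11%. Well above background in all 16 channels were 15 of 15 macrophage, 8 of 10 neutrophil and 10 of 13 T and NK cell markers. The part of these cells in the proteasome values was not tested.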

How the data were processed

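Liver RNA pools were compared on 8 two-colour Agilent arrays. The deposited intensity values are median spot and background signals, made with Agilent Feature Extraction (9.5.3.1, and 10.7.1.1 for female day 5 and male day 3), per the file headers. The deposited LogRatio column holds the software's log10 red over green ratio, per the file headers, and the deposited spot flags (other values, 0 or 1) mark spots well above background, saturated or outlying. Probe positions are on mm8. Signals were background-corrected by normexp (offset 50), loess-normalized within arrays and turned to numerator over denominator in limma 3.58.1 (R 4.3.3, with data.table at version 1.17.8). Outlier spots were left out. Of 41174 probes, 33335 were kept because both arrays of a comparison had 1 channel or more well above background, and the brightest stood for each of 22226 genes. One limma model had 4 comparisons and a dye term, which is also the replicate number (3 residual degrees of freedom, prior 3.62), with 2-sided moderated tests and Benjamini-Hochberg adjustment over all genes. The code was tested on simulated data. All 37 genes are named, with array values for the catalytic and activator genes and for the 3 highest and 3 lowest others in a comparison; of the lists, the highest and lowest called genes and a few regulators set by name. Members and lists were chosen with earlier results of these data known. The series text gives 11 untreated females where the sample labels give 10, and the purpose stated for the female arrays names males.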

Additional observations from a re-analysis of the deposited data

How the results depend on the processing

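The values were recomputed under 16 alternatives, and of 2368 recomputed member values 0 turned a call's direction. Of 16 calls, 2 (Psme2 and Psmd8 in males at day 3) held under all. Rises in the untreated comparison went from 1 to 0 with median centring, the software's ratios, the mean of all probes, an intensity trend, the comparison's own arrays alone and no dye term (no replicate block), and were 0 to 3 on leaving out 1 array. Falls there went from 1 to 0 with the software's ratios and the own arrays (0 to 4 on leaving out 1 array). In males at day 5 the 3 rises became 0 with the software's ratios and 6 with the own arrays (0 to 3), and the 1 fall 0 with median centring, no dye term and a trend (0 to 1). In females the 2 rises became 1 with median centring and no dye term, and 0 with the software's ratios and the own arrays (0 to 2), and the 1 fall 0 with median centring, a trend and the own arrays (0 to 1). In males at day 3 the 6 rises became 12 without background subtraction (3 to 8), and the 1 fall 0 with median centring (0 to 1). The inducible minus other median there moved from 0.21 to 0.27 with median centring. Without an array of its own a comparison rests on 1 array, assumed to vary like the others, and the causes of the other changes were not tested. The number of arrays limits the precision: the median standard error of a member was 0.0715.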

Other observations

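Ubiquitin and ubiquitin-like genes tag the proteins that the proteasome degrades or that an antiviral response modifies. Of 18 measured, 7 rose in males at day 5, 6 in females and 9 in males at day 3, where 2 fell, and 1 rose and 1 fell in untreated mice. The called shares were 38.9%, 33.3%, 61.1% and 11.1%, where all genes had 18.8%, 19.1%, 44% and 11%. Isg15, a ubiquitin-like modifier induced by interferon, rose to 1.11 and 1.06 on the arrays of males at day 5, 0.86 and 0.89 in females and 1.49 and 1.15 in males at day 3 (means 1.08 ± 0.08, 0.87 ± 0.08 and 1.32 ± 0.08, limma adjusted p = 0.000249, 0.000907 and 5.2e-05). Usp18, which removes Isg15 from proteins, rose by 0.93 ± 0.12, 0.94 ± 0.12 and 1.31 ± 0.12, and Uba7, which activates Isg15, by 0.75 ± 0.06, 0.52 ± 0.06 and 0.68 ± 0.06, each in all 3 treated comparisons with the female pools as labelled. Uba7 was lower in untreated males, at −0.52 and −0.47.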
